A study of Mus musculus with 4 samples.

Results

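Of the 27998 genes in the count matrices, 9 secreted factors of muscle repair were followed through the immune cells of injured muscle: *Igf1*, *Gdf15*, *Gdf3*, *Tgfb1*, *Tgfbi*, *Spp1*, *Pdgfb*, *Nampt* and *Grn*. They were taken from a list of factors that macrophages are known to release, by gene symbol, and all 9 of the 9 listed genes were found once in each of the 4 matrices. CD45+ cells were isolated by magnetic bead enrichment from tibialis anterior muscle of male mice aged 8 to 12 weeks, 2 or 4 days after cardiotoxin, a toxin that kills muscle fibres (dpi2 and dpi4), and profiled by droplet 3′ RNA sequencing. Control mice were Bach1 fl/fl, with *loxP* sites around exon 4 of *Bach1*, which encodes a heme-binding repressor of transcription. KO mice carried the same alleles and a Cre driven from the *Lyz2* locus, which is active in myeloid cells such as macrophages, monocytes and neutrophils. Both genotypes were on the C57BL/6 background and all 4 groups received cardiotoxin. Each group was 1 library, so no spread between animals was measured, no test was run, and every interval below is a 95% interval for counting error only.

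After injury, monocytes enter the muscle, clear debris and become macrophages that release growth factors. These act on muscle stem cells, fibroblasts and vessels: IGF-1 drives growth of muscle cells through the IGF-1 receptor, TGF-β1 acts on fibroblasts and is released from a latent complex, and PDGF-B recruits mural cells. GDF15 and GDF3 belong to the TGF-β superfamily, TGFBI and osteopontin (*Spp1*) are matrix proteins that bind integrins, NAMPT makes a precursor of NAD and is also found outside cells, and progranulin (*Grn*) is a lysosomal and secreted protein.

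The libraries held from 4177 to 6602 barcodes and from 57010520 to 80228489 UMIs, that is, counted RNA molecules, and from 3433 to 5721 cells were kept. Pairs of libraries shared from 2 to 14 barcodes. *Bach1* in macrophages stood at 123 CPM (counts per 1000000, the share of a gene in the UMIs of its class) in the control and 144 in the KO library at dpi2, and at 214 and 229 at dpi4. Counts by gene do not show which exons a transcript held and so check nothing about the deletion. *Lyz2* itself stood at 8118 and 18324 CPM in control macrophages at dpi2 and dpi4, and at 13.0 and 24.2 CPM in those of the KO libraries. Loss of *Bach1* and loss of *Lyz2* RNA from the Cre locus therefore cannot be told apart in any comparison of genotypes below.

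Cells were grouped into 25 clusters without use of the 9 factors, and the clusters were named from markers. Macrophages numbered 1856 (control) and 1065 (KO) at dpi2 and 2940 and 2564 at dpi4, and all 11 of their markers were detected in each library. Their markers summed to 12786 and 13752 CPM at dpi2 and to 41333 and 33846 CPM at dpi4. Of the 8 monocyte markers none was at 0 in macrophages, with sums of 1239, 955, 567 and 477 CPM in the same order. The 8 neutrophil markers summed to 106, 272, 91.2 and 68.5 CPM, and *Ly6g* was at 0 in 3 of the 4 libraries. Fibroblast markers (5 of 5 above 0) summed to 2.57, 1.40, 23.5 and 11.6 CPM. The part of any of these in the results below was not tested. A cluster of 363 control and 68 KO cells at dpi4 was led by muscle transcripts (*Mylpf*, *Acta1*) but had 2937 and 3272 CPM of the macrophage gene *C1qa* and 652 and 610 CPM of *Ptprc*, which encodes CD45. Its markers went against the name muscle cell, so that it is called below by its leading genes, and it was kept apart from the macrophages.

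The class that held most of a factor's UMIs depended on the factor and on the day. At dpi4 macrophages held from 75.0% (*Pdgfb*) to 89.7% (*Spp1*) of the UMIs of each factor in the control library, and from 76.2% (*Pdgfb*) to 95.9% (*Igf1*) in the KO library, where they held 75.7% and 82.2% of the UMIs of all genes. At dpi2, when macrophages held 52.0% and 56.3% of the UMIs of all genes, only *Igf1*, *Spp1*, *Grn* and *Gdf3* had over 70% of their UMIs in macrophages in both libraries, with 94.4% for *Igf1* in either. Monocytes held 63.7% of *Tgfbi* UMIs in the control and 50.7% in the KO library at dpi2, and 53.2% and 19.3% of *Gdf15* UMIs, beside 38.2% and 25.7% of the UMIs of all genes. They numbered 2593 and 968 cells at dpi2 but 46 and 73 at dpi4. The cluster led by muscle transcripts held from 7.69% (*Spp1*) to 18.0% (*Gdf15*) of the factors' UMIs in the control library at dpi4, beside 9.85% of the UMIs of all genes.

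**Figure D1:**
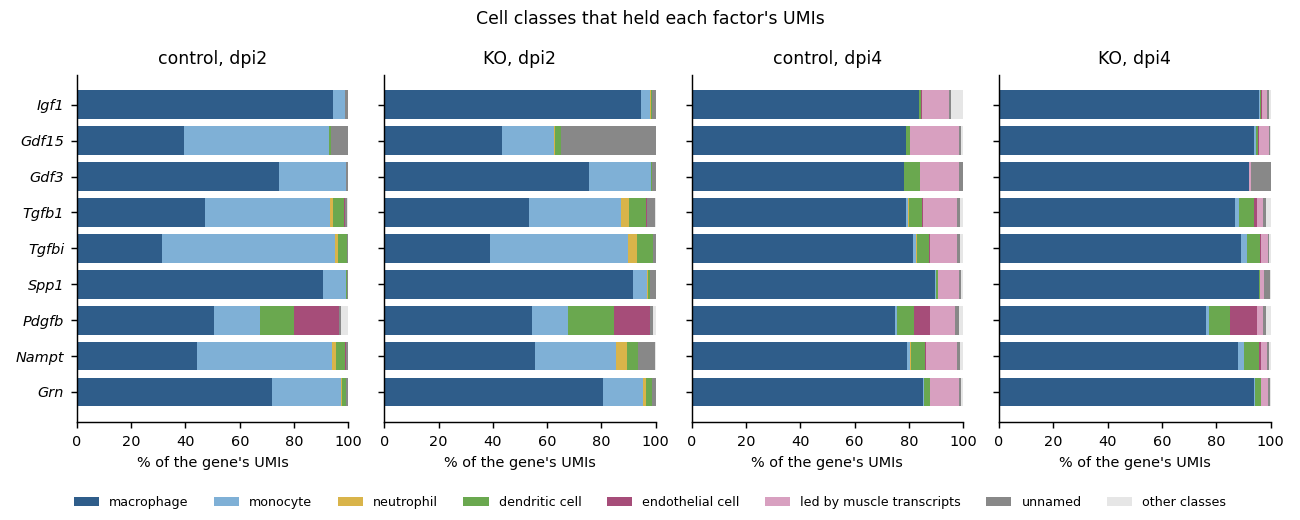
Share of each factor's UMIs (horizontal axis, % of the gene's UMIs in kept cells) held by each cell class, 1 panel for each library and 1 bar for each factor. At dpi2 monocytes held 63.7% of control *Tgfbi* UMIs and unnamed clusters 34.8% of KO *Gdf15* UMIs, and at dpi4 macrophages held at least 75.0% of every factor, beside 75.7% (control) and 82.2% (KO) of the UMIs of all genes.

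By level, the order of the classes also differed among the factors. *Igf1* (ENSMUSG00000020053; GRCm38 chromosome 10, 87858265 to 87937042, plus strand) stood at 178 and 250 CPM in control and KO macrophages at dpi2, and at 379 and 694 CPM at dpi4. Monocytes had 11.2 and 20.6 CPM at dpi2, below macrophages of the same libraries, and neutrophils 1.96 and 6.40 CPM. At dpi4 the few fibroblasts of the sort had 742 CPM in the control (39 cells) and 287 CPM in the KO library (15 cells). T or NK cells, which served as the background from free RNA, had 0, 5.42, 0 and 27.5 CPM in the order control and KO at dpi2, control and KO at dpi4, where 0 allows up to 6.43 and 5.40 CPM.

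*Spp1* (ENSMUSG00000029304; chromosome 5, 104435118 to 104441050, plus strand) stood at 13952 CPM in control and 8168 CPM in KO macrophages at dpi2, and at 6757 and 9650 CPM at dpi4. By summed level the order of the genotypes was thus opposite on the 2 days. The share of macrophages with a UMI, given below, was lower in KO on both. Monocytes were lower, with 1722 and 1019 CPM at dpi2. T or NK cells, as background, had 259, 130, 222 and 333 CPM, and dendritic cells 267, 495, 525 and 295 CPM, below T or NK cells in the KO library at dpi4.

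*Tgfbi* (ENSMUSG00000035493; chromosome 13, 56609523 to 56639562, plus strand) was higher in monocytes than in macrophages of every library. Monocytes had 1341 (control) and 1810 CPM (KO) at dpi2 and 730 and 780 CPM at dpi4, against 488, 634, 396 and 502 CPM in macrophages. Neutrophils at dpi2 had 371 and 579 CPM, while T or NK cells had between 8.75 and 64.3 CPM.

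*Pdgfb* (ENSMUSG00000000489; chromosome 15, 79995874 to 80014977, minus strand) had its highest level in endothelial cells, with 171, 138, 134 and 176 CPM over 12 to 40 cells a library. Macrophages had 5.68 and 4.99 CPM at dpi2 and 23.8 and 24.0 CPM at dpi4. T or NK cells had 25.7, 16.3, 9.01 and 13.8 CPM in the order control and KO at dpi2, control and KO at dpi4. All kept cells had 5.86 and 5.15 CPM at dpi2, so T or NK cells did not serve as a background for *Pdgfb*. Neutrophils held 0 UMIs of it at dpi2. Macrophages were below T or NK cells in the control library at dpi2, above them in the control library at dpi4, and had overlapping intervals in both KO libraries. *Gdf3* (ENSMUSG00000030117; chromosome 6, 122605403 to 122610087, minus strand) was scarce: macrophages had 8.92, 6.39, 1.99 and 2.82 CPM, and monocytes 4.08 and 4.30 CPM at dpi2. No UMI of it was counted in neutrophils at dpi2, which allows up to 1.96 and 1.01 CPM.

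*Tgfb1* (ENSMUSG00000002603; chromosome 7, 25687002 to 25705077, plus strand) had 187, 207, 299 and 293 CPM in macrophages and from 165 to 269 CPM in T or NK cells, which are known to make it. *Nampt* (ENSMUSG00000020572; chromosome 12, 32819545 to 32853349, plus strand) had 192, 184, 181 and 207 CPM in macrophages and 296 and 218 CPM in monocytes at dpi2. *Grn* (ENSMUSG00000034708; chromosome 11, 102430315 to 102437048, plus strand) had 2070, 1894, 1741 and 2165 CPM in macrophages, and monocytes had 987 and 767 CPM and neutrophils 257 and 203 CPM at dpi2. *Gdf15* (ENSMUSG00000038508; chromosome 8, 70629393 to 70632456, minus strand) had 132, 142, 501 and 635 CPM in macrophages, and 241 and 139 CPM in monocytes at dpi2. Neutrophils then had 16.3 and 19.2 CPM and dendritic cells 15.7 and 47.2 CPM of it. T or NK cells had 70.7 CPM in the control library, above both classes, and 5.42 CPM from 1 UMI in the KO library. The control value came from 33 UMIs held by 3.92% of 102 cells, and so was not a level spread over the class.

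**Figure D2:**
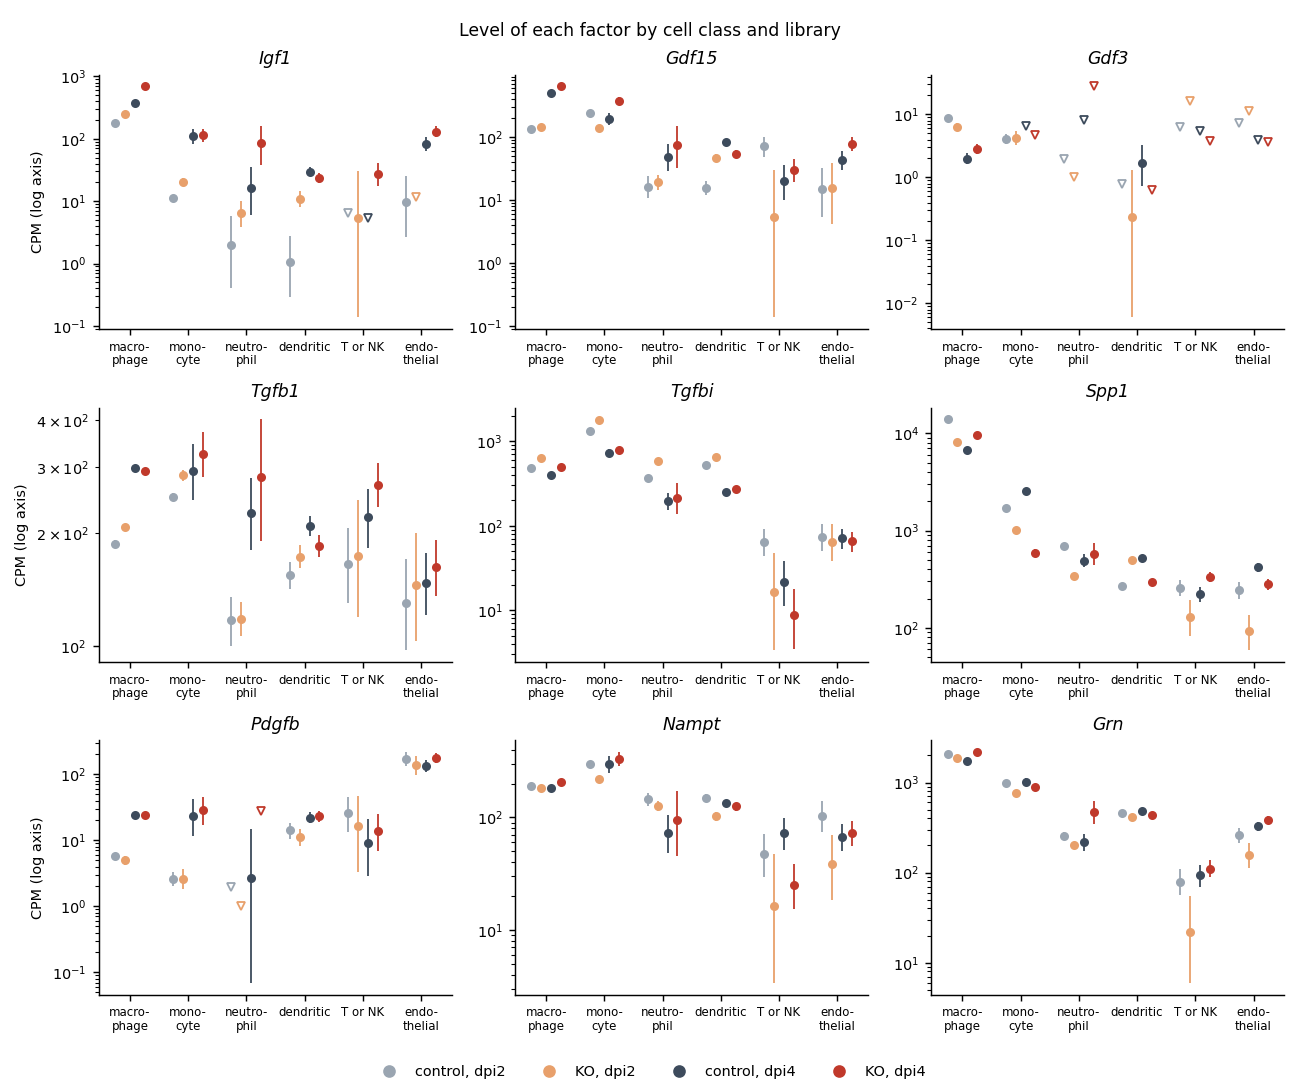
Level of each factor (vertical axis, CPM on a log axis) in 6 cell classes, with 1 point for each library and bars for the 95% Poisson interval. Open triangles mark a class with no UMI, at the level that 3 counts would give. *Igf1* and *Spp1* points of macrophages lie above those of the other classes shown, *Tgfbi* points are highest in monocytes and *Pdgfb* points in endothelial cells.

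The study asked how loss of *Bach1* in myeloid cells changes macrophages during repair, and the first comparison set KO against control macrophages. No factor reached a 2-fold difference on either day. The size rule asked for at least 2-fold, an interval that leaves out 1, and at least 50 UMIs in the pair. At dpi2 0 of 9 factors passed it higher and 0 lower in KO, where 2.31% of all 11115 genes measured passed it higher and 2.25% lower. At dpi4 0 of 9 passed it in either direction, beside 0.971% and 1.37% of 11952 genes. The median log2 ratio of the 9 factors was -0.06 at dpi2 and 0.34 at dpi4, against -0.02 and 0.01 over all genes measured, and 4 and 8 of the 9 (44.4% and 88.9%) had a positive value, beside 47.1% and 52.4% of all genes measured.

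The factor with the greatest difference in favour of KO macrophages was *Igf1*. Its ratio of KO to control was 1.40 at dpi2 (interval 1.35 to 1.45) and 1.83 at dpi4 (1.80 to 1.86), or 0.48 and 0.87 as log2 ratios. The difference held within clusters: at dpi4 *Igf1* was higher in KO in 7 of the 7 macrophage clusters with at least 50 cells in both libraries, with ratios from 1.31 to 2.53. The highest ratio was in the interferon-responsive cluster led by *Iigp1* and *Ifit2*, at 246 CPM in 390 control cells and 622 CPM in 203 KO cells. With the cluster shares of the control library applied to both, an alternative added after the data were seen, the log2 ratio at dpi4 was 0.75. Fibroblast markers, whose cells also held *Igf1*, summed to 23.5 CPM in control and 11.6 CPM in KO macrophages at dpi4, and their part in the *Igf1* ratio was not tested.

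At dpi2 *Igf1* was higher in KO in 2 of the 2 macrophage clusters with at least 50 cells in both libraries, and with the cluster shares of the control library applied to both the log2 ratio was 0.48, as without. The difference was wider in the smaller of the 2. In that cluster, led by *Ppbp* and *Gja1* with *Cd163* and *Lyve1*, markers of resident macrophages, among its leading genes, *Igf1* stood at 54.0 CPM in 436 control cells and 233 CPM in 341 KO cells, a ratio of 4.31 (3.88 to 4.81). Monocytes of the cluster led by *Vcan* and *Chil3* had 1.96 and 12.3 CPM. The KO library at dpi2 also had deeper macrophages, with a median of 26562 UMIs per cell against 18751.

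By cells, 19.8% of control and 29.9% of KO macrophages at dpi2, and 45.0% and 65.2% at dpi4, held at least 1 *Igf1* UMI once each cell was thinned to 2000 UMIs. Without thinning the shares were 51.6%, 63.9%, 82.8% and 89.5%. T or NK cells thinned the same way gave 0% (0 of 100, which allows up to 3.62% by the exact interval), 2.78%, 0% and 6.25%, with median depths from 3951 to 4962 UMIs against 15414 to 26562 in macrophages. Cells shallower than 2000 UMIs were left out, from 7 to 56 macrophages in each library.

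The genotype difference of *Spp1* in macrophages had opposite directions on the 2 days with intervals that left out 1, as had those of *Gdf3*, *Grn* and *Nampt*. The share of all genes with such a pattern is not given here, so that it cannot be read as particular to the factors. The level of *Spp1* in KO macrophages was 0.585 times that of the control at dpi2 (0.583 to 0.588) and 1.43 times at dpi4 (1.42 to 1.43). With the cluster shares of the control library applied to both, the log2 ratio at dpi2 was -0.65 against -0.77 as measured. *Spp1* was lower in 1 of the 2 clusters, the larger, while the *Ppbp* and *Gja1* cluster had 1729 and 1747 CPM, a ratio of 1.01 (0.987 to 1.03). At dpi4 *Spp1* was higher in KO in 6 of 7 macrophage clusters and lower in 1, that led by *Gpr34* and *Sepp1* (3168 CPM in control, 2533 CPM in KO). Among the 6, the cluster led by *Pltp* and *Apoe* had 3354 and 8203 CPM, a ratio of 2.45 (2.41 to 2.48), while that led by *Mmp12* and *Mfge8* had 17154 and 19644 CPM.

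*Spp1* was unequal between cells. The 10% of macrophages with the most *Spp1* UMIs held 46.7%, 52.5%, 68.6% and 69.9% of them in the order control and KO at dpi2, control and KO at dpi4, where the deepest 10% of cells held from 19.9% to 24.3% of all UMIs. For *Grn* the top 10% held from 21.7% to 30.6%. The median macrophage had 6562 and 2482 CPM of *Spp1* at dpi2 and 1565 and 1670 CPM at dpi4. Once thinned, 89.4% of control and 74.9% of KO macrophages held a *Spp1* UMI at dpi2. At dpi4 the shares were 80.4% and 78.3%, with overlapping intervals, so that by cells the order was not opposite on the 2 days.

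The 250 bases before the start of *Spp1* (RefSeq, GRCm38.p6, chr5:104434861-104435110, plus strand) and of *Gdf15* (chr8:70632457-70632706, minus strand) are shown because the genotype difference of *Spp1* was opposite on the 2 days and *Gdf15* passed 2-fold with time in both genotypes, though not with the cluster shares kept. The sequences read 5′ to 3′ on the strand of the gene, and capitals mark a match to a searched motif.
Spp1: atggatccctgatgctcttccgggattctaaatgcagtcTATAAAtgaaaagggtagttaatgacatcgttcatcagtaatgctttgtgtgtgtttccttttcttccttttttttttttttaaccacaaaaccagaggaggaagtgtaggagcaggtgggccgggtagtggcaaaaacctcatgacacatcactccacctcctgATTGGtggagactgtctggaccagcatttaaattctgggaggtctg
Gdf15: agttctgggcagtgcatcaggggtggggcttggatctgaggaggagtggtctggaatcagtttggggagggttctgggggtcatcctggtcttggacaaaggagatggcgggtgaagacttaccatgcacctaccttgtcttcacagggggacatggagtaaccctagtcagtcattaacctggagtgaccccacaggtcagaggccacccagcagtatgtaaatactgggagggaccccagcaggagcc

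Both strands were searched for 6 motifs: the antioxidant response element core TGACNNNGC, which BACH1 and NRF2 are known to bind, the AP-1 site TGANTCA, the cAMP response element TGACGTCA, the C/EBP-ATF element TGATGNAAT, the TATA box TATAAA and the CCAAT box CCAAT. Over 32536 promoters these were found in 10.2%, 6.73%, 1.56%, 0.814%, 12.3% and 33.8%. The study also counts the TRE, that is, the AP-1 site, among the elements that BACH1 binds. *Spp1* held TATAAA and, on the other strand, CCAAT, and *Gdf15* held no match in this window. *Igf1* held a match to the AP-1 letters as searched (TGAATCA, with A at the free position) and, on the other strand, CCAAT. Its upstream window lies wholly within annotated exons and is not printed. Of the 9 factors 7 were in the promoter table (*Gdf3* and *Pdgfb* were not). None of the upstream windows of these 7 held TGACNNNGC, which says only that these letters are not there.

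The rest of the factors differed by less between genotypes in macrophages than *Igf1* at dpi4 or *Spp1* at dpi2. *Tgfbi* was 1.30 times as high in KO at dpi2 (1.27 to 1.33) and 1.27 times at dpi4 (1.24 to 1.29), and at dpi4 it was higher in 6 of 7 clusters. *Grn* was 0.915 times the control at dpi2 and 1.24 times at dpi4. *Gdf15* was 1.08 and 1.27 times the control, but both values turned under an alternative. The log2 ratio at dpi2 was 0.11 as measured and -0.33 with monocytes and macrophages pooled, and at dpi4 it was 0.34 as measured and -0.07 with the control's cluster shares in both. The cluster led by *Slc40a1* and *Vcam1*, whose *Spic* and *Slc40a1* mark iron-recycling macrophages, held 54 control and 771 KO cells, and *Gdf15* stood there at 1385 and 1263 CPM. The log2 ratio of *Tgfb1* was 0.15 at dpi2 and -0.03 at dpi4, that of *Nampt* -0.06 and 0.19, and that of *Pdgfb* -0.19 and 0.01. *Gdf3* had -0.48 and 0.50, from few UMIs.

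**Figure D3:**
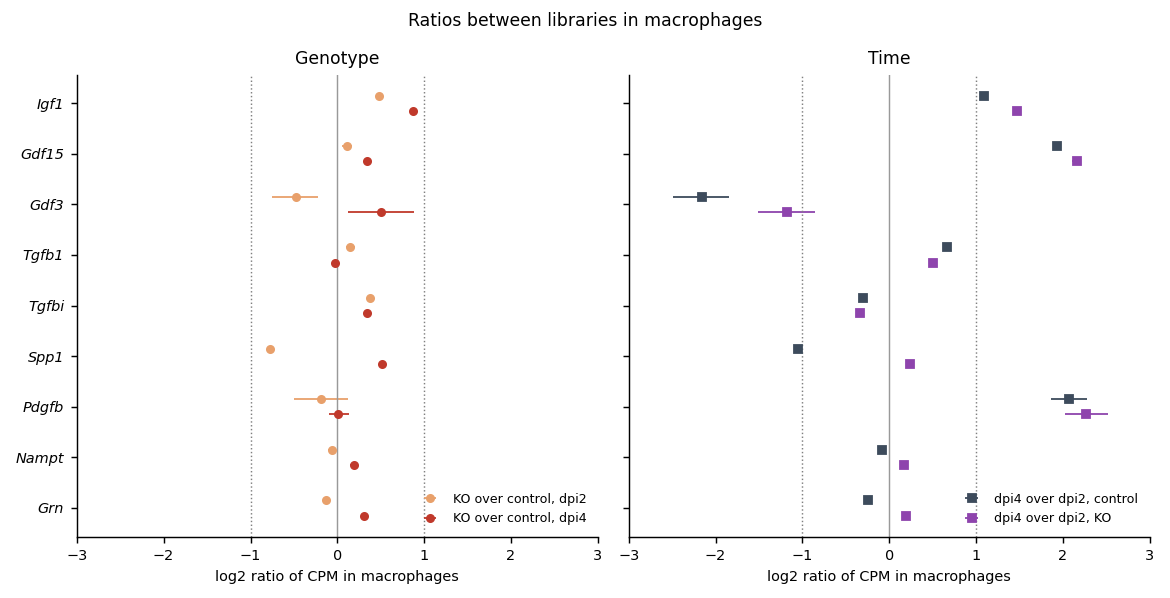
Log2 ratios of CPM in macrophages with 95% counting intervals, for KO over control at each day (left) and dpi4 over dpi2 in each genotype (right). Dotted lines mark 2-fold. No factor passed 2-fold by genotype, and *Spp1* lay at -0.77 and 0.51, while *Igf1*, *Gdf15* and *Pdgfb* passed 2-fold with time in both genotypes.

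The second comparison set dpi4 against dpi2. More factors passed the size rule with time than between genotypes. In control macrophages 3 of 9 factors passed the size rule higher at dpi4, beside 9.74% of 11734 genes, and 2 lower, beside 6.01%. In KO macrophages 3 passed it higher, beside 9.01% of 11452 genes, and 1 lower, beside 4.98%. The same *Igf1*, *Gdf15* and *Pdgfb* were the 3 higher ones in either genotype, and *Gdf3* was lower in both. The libraries of the 2 days also differed in which cells they held, and the 2 genotypes each had their own pair of libraries.

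*Gdf15* was 3.80 times as high at dpi4 in control (3.69 to 3.92) and 4.46 times in KO macrophages (4.32 to 4.61). Only 4 macrophage clusters had 20 cells or more on both days, with 78.9% and 72.7% of control macrophage UMIs at dpi2 and dpi4 and 70.2% and 48.1% of KO ones. With the cluster shares of dpi2 kept over these 4, the *Gdf15* log2 ratios of 1.93 and 2.16 came to 0.64 and 0.53, below 2-fold. *Igf1* was 2.13 and 2.78 times as high, and its log2 ratios of 1.09 and 1.47 came to 1.42 and 1.56 with the shares kept. In dividing macrophages, led by *Top2a* and *Birc5*, *Igf1* went from 62.0 to 329 CPM in control cells. *Pdgfb* had log2 ratios of 2.07 and 2.27, and 2.11 and 2.28 with the shares kept, at levels where few cells held a UMI: 1.52% and 1.04% of thinned macrophages held a UMI at dpi2 and 3.36% and 4.19% at dpi4. Of T or NK cells thinned the same way, 9 of 100 in the control and 5.56% in the KO library held one at dpi2, and 2.70% and 3.91% at dpi4. Neutrophils held 0 *Pdgfb* UMIs at dpi2. The macrophage level at dpi2, against which the ratio is taken, rests on 212 and 150 UMIs.

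*Gdf3* had log2 ratios of -2.16 in control and -1.18 in KO macrophages, and -2.76 and -0.80 with the shares kept, the KO value then short of 2-fold. *Spp1* was 0.484 times its dpi2 level in control macrophages at dpi4 (0.482 to 0.486), and 1.18 times in KO ones (1.18 to 1.19). With the shares kept, the control log2 ratio of -1.05 came to -0.53, short of 2-fold, and the KO value of 0.24 came to 1.21. With each cell weighted equally the KO value was -0.24, and with monocytes counted in the control value was -0.38. *Tgfb1* had log2 ratios of 0.67 and 0.50, and 0.24 and 0.06 with the shares kept. *Tgfbi* had -0.30 and -0.34, and -0.39 and -1.22 with the shares kept, the KO value then past 2-fold. With monocytes counted in, its control value was -1.09. *Grn* and *Nampt* lay between -0.25 and 0.19. With monocytes counted in, *Grn* had 0.11 in control and 0.48 in KO.

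The levels of *Spp1* and *Gdf15* differed widely across macrophage states. At dpi4 *Spp1* stood at 17154 CPM in control and 19644 CPM in KO cells of the *Mmp12* and *Mfge8* cluster, against 2808 CPM in control cells of the *Slc40a1* cluster and 2533 CPM in KO cells of the *Gpr34* cluster. *Gdf15* ran from 106 and 120 CPM in the *Pltp* and *Apoe* cluster to 1385 and 1263 CPM in the *Slc40a1* and *Vcam1* cluster. *Igf1* at dpi4 spanned a narrower range, from 246 to 582 CPM in control and from 485 to 808 CPM in KO cells of the macrophage clusters plotted for that day. *Nampt* had 291 and 404 CPM in the *Iigp1* cluster at dpi4. At dpi2 it had 434 CPM in 271 control monocytes led by *Cxcl10* and 298 CPM in the 1105 led by *Ccl2* and *Ly6c2*. At dpi4 it stood at 430 CPM in 58 KO dendritic cells led by *Ccr7* and *Fscn1*.

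**Figure D4:**
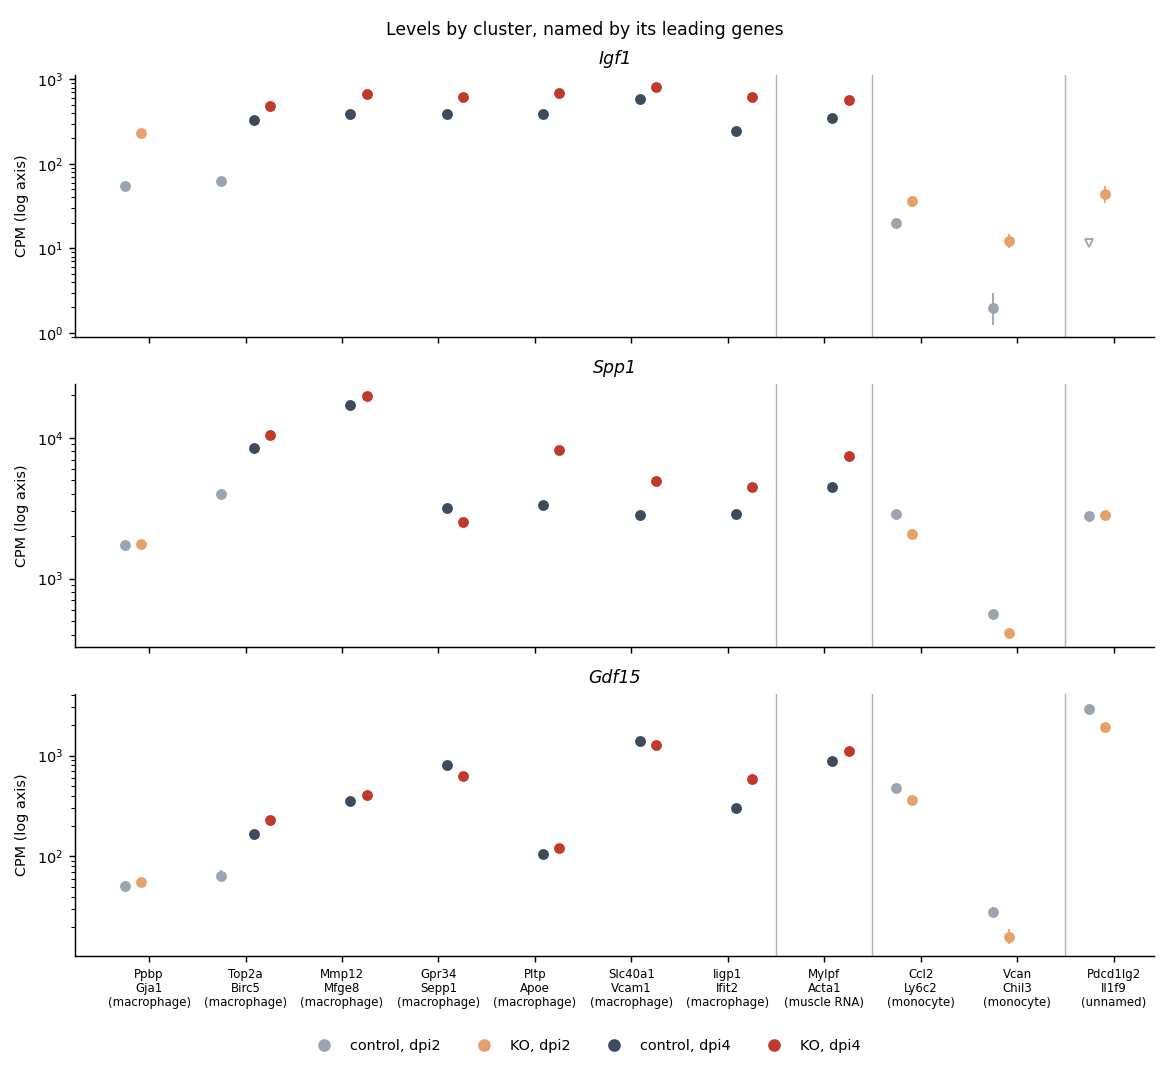
Levels of *Igf1*, *Spp1* and *Gdf15* (vertical axes, CPM on a log axis) in clusters named by 2 leading genes, with 1 point per library of at least 50 cells and 95% Poisson bars. Grey lines part the macrophage clusters from the cluster led by muscle transcripts, the monocytes and an unnamed cluster. KO points of *Igf1* lie above the control points of the same day in every cluster shown with both, and *Gdf15* is highest in the unnamed cluster, at 2888 and 1898 CPM.

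The share of cells with *Gdf15* or *Spp1* was higher among macrophages with *Igf1* than among those without. At dpi4, after thinning, 43.7% of the 1300 control macrophages with *Igf1* held *Gdf15*, against 33.9% of the 1587 without, and in KO 47.6% of 1634 against 38.6% of 874. For *Spp1* the shares were 83.4% and 77.9% in control and 81.3% and 72.5% in KO. These are descriptions of cells of single libraries.

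The third comparison concerned monocytes and neutrophils at dpi2, which the Cre also reaches. In monocytes 0 of 9 factors passed the size rule higher in KO and 0 lower, beside 1.82% and 2.53% of 10004 genes. The log2 ratios were 0.88 for *Igf1*, 0.43 for *Tgfbi*, -0.79 for *Gdf15*, -0.76 for *Spp1* and -0.44 for *Nampt*. The monocytes were spread unequally over their clusters, with 1217 control and 625 KO cells in that led by *Vcan* and *Chil3*, 1105 and 312 in that led by *Ccl2* and *Ly6c2*, and 271 and 31 in that led by *Cxcl10*. Within the first and second of these the log2 ratio was -0.45 and -0.49 for *Spp1*, -0.83 and -0.41 for *Gdf15*, and 2.65 and 0.83 for *Igf1*. Those of *Gdf15* and *Spp1* turned when each library was clustered by itself, to 1.94 and 0.60, and 2 factors then passed the rule higher in KO and 0 lower, beside 2.94% and 2.76% of 9694 genes. The sets of cells differed: control monocytes then numbered 1893 against 2593, and unnamed control cells 917 against 188. KO monocytes numbered 897 against 968. *Gdf15* in monocytes lay mostly in 1 cluster, led by *Ccl2* and *Ly6c2*, at 480 CPM in control and 361 CPM in KO cells, while the *Vcan* and *Chil3* cluster had 28.3 and 16.0 CPM.

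In neutrophils 6 of 9 factors had enough UMIs, and 0 passed the rule higher in KO, beside 2.50% of 5795 genes, and 1 lower, beside 6.71%. That factor was *Spp1*, at 692 CPM in 629 control and 338 CPM in 819 KO cells, a log2 ratio of -1.03. T or NK cells of the same libraries went from 259 to 130 CPM, and thinned shares with a UMI were 59.7% (control) and 37.3% (KO) in neutrophils, beside 41.0% and 22.2% of T or NK cells. The part of free RNA in this difference was not tested. Scaling by TMM shifted all neutrophil log2 ratios by 0.36, to -0.67 for *Spp1*, and *Tgfbi*, at 371 and 579 CPM, then passed the rule higher in its place and 0 factors lower, beside 5.13% and 2.81% of genes.

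In the smaller groups 4 more differences passed the rule. *Spp1* was lower in KO monocytes at dpi4, at 2538 CPM in 46 control and 590 CPM in 73 KO cells, 1 of 7 factors measured beside 1.40% of 3282 genes, and 0 were higher beside 1.86%. Macrophage markers in these monocytes summed to 12460 CPM in control and 9220 CPM in KO, and their part was not tested. *Grn* was higher in KO neutrophils at dpi4, at 218 CPM in 128 control and 470 CPM in 36 KO cells, 1 of 4 beside 1.97% of 1622 genes, and 0 were lower beside 4.32%. The KO value rests on 50 UMIs. Thinned shares of these neutrophils with a *Grn* UMI did not have that order, at 37.8% in control and 33.3% in KO. In dendritic cells at dpi2 2 of 8 factors were higher in KO and 0 lower, beside 1.71% and 1.36% of 8139 genes. These were *Gdf15*, at 15.7 and 47.2 CPM, and *Igf1*, at 1.06 and 10.9 CPM from 4 and 46 UMIs. Macrophage markers in the same dendritic cells summed to 725 CPM in control and 1230 CPM in KO, and their part was not tested.

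The highest level of *Gdf15* lay outside the named classes. An unnamed cluster led by *Pdcd1lg2* and *Il1f9* held 90 control and 485 KO cells at dpi2, and *Gdf15* stood there at 2888 and 1898 CPM. In the KO library the unnamed clusters held 34.8% of all *Gdf15* UMIs, and in the control library 6.18%. The cells had 5710 and 8199 CPM of *S100a8* and 324 and 240 CPM of *Csf3r*, both known from neutrophils, against 25582 and 36699 CPM and 1247 and 1257 CPM in neutrophils, and 27.3 and 27.0 CPM of *C1qa*. Of the neutrophil markers 6 were detected, but a cluster whose median depth was under 0.333 times that of its libraries was named only with a marker of its class among its 10 leading genes. This cluster stood at 0.296 with 0 such markers and was left unnamed, while the named neutrophils stood at 0.248 with 6. *Igf1* was at 0 UMIs in the control cells, which allows up to 11.7 CPM, and at 43.5 CPM in the KO cells.

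Partners of the factors were read from 4 lists of 70 genes in all. In macrophages at dpi2 the list of other secreted repair factors had 8 of its 14 measured genes past the size rule higher in KO and 0 lower, beside 2.31% and 2.25% of all genes, and a median log2 ratio of 1.04 against -0.02 over all genes. The EGF receptor ligand *Areg* had 2.09 CPM in control and 17.5 CPM in KO macrophages, the cytokine *Lif* 0.937 and 4.02 CPM, and *Csf1*, the macrophage growth factor, 6.11 and 20.7 CPM. The other 5 of the 8, named after their values were seen, were *Vegfa*, *Il10*, *Inhba*, *Hbegf* and *Osm*, with ratios of 2.67, 2.71, 2.37, 2.07 and 2.04. *Metrnl*, a muscle-repair cytokine, had 308 and 211 CPM. Neutrophil markers in the same macrophages summed to 106 CPM in control and 272 CPM in KO. Whether they move these genes was not tested.

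At dpi4 the same list had 1 gene higher and 1 lower among 13 measured, beside 0.971% and 1.37% of all genes, with a median of 0.20. *Lif*, the one gene of the 4 lists past the rule in the same direction on both days, had 0.475 and 0.998 CPM, and *Fn1*, which encodes fibronectin, was lower in KO, at 174 and 83.4 CPM. *Gas6*, a ligand of MERTK, had 176 and 280 CPM. With time, 2 of 14 were higher and 2 lower in control macrophages, beside 9.74% and 6.01% of all genes. In KO macrophages 1 was higher and 5 lower, beside 9.01% and 4.98%. *Fn1* went from 581 to 174 and from 801 to 83.4 CPM, and *Inhba*, a subunit of activin A, from 1.20 to 0.201 CPM in control. *Lif* went from 4.02 to 0.998 CPM in KO.

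Of the IGF axis 2 of 7 measured genes were higher in KO at dpi2 and 0 lower, beside 2.31% and 2.25% of all genes, with a median of 0.43. These were the insulin and IGF-1 receptor substrate *Irs2* and the IGF-binding protein *Igfbp6*, at 2.92 and 7.75 CPM. *Irs2* had 51.0 and 116 CPM. At dpi4 *Igfbp6* was the 1 gene of 9 past the rule and was lower in KO, beside 1.37% of all genes, at 1.33 and 0.521 CPM, and *Igfbp7* had 3.22 and 1.71 CPM. With time 4 were higher and 2 lower of 9 in control, beside 9.74% and 6.01% of all genes, and 2 and 1 of 8 in KO, beside 9.01% and 4.98%. *Igf2* had 0 UMIs in control macrophages at dpi2 and 93 at dpi4 (1.70 CPM), a ratio whose lower exact limit was 16.9. *Igfbp5* went from 2 to 94 UMIs (0.0536 to 1.72 CPM), a ratio of 32.1 (8.64 to 269). The 5 muscle markers in the same macrophages summed to 3.99 CPM at dpi2, with 2 of them at 0, and to 20.7 CPM at dpi4, with 0 at 0. Their part in these ratios was not tested. In monocytes at dpi2 *Igfbp4* and *Igfbp6* were higher in KO, at 2.69 and 7.95 CPM and at 16.2 and 43.5 CPM, 2 of 7 measured, beside 1.82% of all genes.

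Of the TGF-β axis 0 of 14 measured genes passed the rule between genotypes at dpi2 and 0 of 16 at dpi4, with medians of 0.06 and 0.02. Of all genes 2.31% were higher and 2.25% lower at dpi2, and 0.971% and 1.37% at dpi4. With time 3 were higher and 1 lower of 15 in control, beside 9.74% and 6.01% of all genes, and 2 and 1 of 14 in KO, beside 9.01% and 4.98%. The latent TGF-β binding protein *Ltbp3* went from 2.49 to 11.0 CPM in control and from 2.26 to 8.92 CPM in KO, and the receptor *Tgfbr1* from 75.9 to 220 CPM in KO. *Thbs1*, which can activate latent TGF-β, was the 1 lower, from 711 to 245 CPM in control and from 974 to 190 CPM in KO. Of the partners of PDGF, osteopontin, NAMPT and progranulin, 1 of 14 was higher in KO at dpi2, beside 2.31% of all genes, and 0 of 15 at dpi4 passed either way, with medians of 0.07 and 0.11. The 1 gene was *Slpi*, a protease inhibitor that shields progranulin, at 23.4 and 65.5 CPM. *Sort1*, which encodes the progranulin receptor sortilin, had 29.8 and 54.8 CPM at dpi4. With time 3 were higher and 1 lower of 15 in control and 5 and 1 of 15 in KO, beside the same shares of all genes as above, among them the osteopontin-binding integrin genes *Itga4* and *Itga9* in both, while *Slpi* was the 1 lower, at 4.41 and 4.21 CPM at dpi4.

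The genes with the pattern most like each factor were sought across 43 profiles, each 1 cluster in 1 library with at least 50 cells, over 10638 genes. The profiles share 4 libraries and are not independent, and the values are descriptions. *Igf1* was most like *Hebp1*, *Olfml3* and *Gas6* (Pearson r of log2(CPM + 1) 0.94, 0.93 and 0.93). *Spp1* was most like *Ctsd*, *Syngr1* and *Slc6a8* (0.95, 0.94 and 0.93), and *Grn* like *Cd93*, *Lgmn* and *Ctsb* (0.96, 0.96 and 0.95). *Tgfbi* was most like *Cfp*, *Lrrc25* and *Serpinb8* (0.90, 0.88 and 0.87), and *Gdf15* like *Rragc*, *Gpr157* and *Gm13391* (0.86, 0.83 and 0.83). For *Pdgfb*, *Gdf3*, *Tgfb1* and *Nampt* the top genes were *1110032A03Rik* (0.80), *Rab1a* (0.79), *Nucb1* (0.78) and *Ssfa2* (0.80).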

How the data were processed

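The authors sequenced 1 droplet library for each of 4 groups and deposited raw UMI counts from Cell Ranger 6.1.2 with the mm10 genome, without normalization. The labels and the study's methods name different versions of the 3′ chemistry, which was not settled here. The study's own cell annotation was not used.

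Barcodes with a mitochondrial share of at least 10% or under 500 detected genes were removed, and the highest Scrublet scores were removed as doublets, from 100 to 289 per library. The study used miQC, scDblFinder and Harmony for these steps, and no integration was done here. Cells were clustered jointly (scanpy 1.11.5, Leiden at resolution 1, 2000 variable genes, 30 principal components). The factors, the 4 lists, *Bach1* and *Lyz2* were kept out of the variable genes. Clusters were named where at least 3 markers of a class were detected and their 10 leading genes held no more markers of another class than of their own. Clusters with a median depth under 0.333 times that of their libraries also needed 1 marker of their own there. *Igf1*, which the study used as a macrophage marker, was not among the markers.

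UMIs were summed per class and library and divided by the class total (CPM). Intervals are exact: Poisson for CPM, conditional binomial for ratios, Clopper-Pearson for shares. They cover counting error only, and a count of 0 allows 3 counts. The median depth of kept cells ran from 10702 to 15157 UMIs. Summing and the size rule were tested on simulated data. Named genes were the 9 factors, list genes past the rule on both days in macrophages or among the 3 largest differences either way in a comparison, and the 3 genes most like each factor. Other list genes (*Irs2*, *Thbs1*, *Itga9*, *Vegfa*, *Il10*, *Hbegf* and *Osm*, and some genes in comparisons other than the one that met the rule) were named after their values were seen. Factors and lists were chosen with earlier results of these data known. Alternatives were 200 genes, no mitochondrial or doublet filter, resolution 0.5, libraries clustered apart, TMM (edgeR 4.0.16) or median-of-ratios scaling, equal weight per cell, pooled monocytes and macrophages, and other limits of fold and UMIs. Fixed cluster shares, over clusters with at least 20 cells in both libraries, and counting the cluster led by muscle transcripts as macrophages were added after the data were seen. The values of 1 macrophage cluster are not reported here on their own and enter the totals and counts only.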

Additional observations from a re-analysis of the deposited data

Results flagged for a closer look

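Some factors differed between genotypes in opposite directions on the 2 days, and both counting intervals left out a ratio of 1. In macrophages the log2 ratios of KO to control at dpi2 and dpi4 were -0.77 and 0.51 for *Spp1*, -0.48 and 0.50 for *Gdf3*, -0.13 and 0.31 for *Grn*, and -0.06 and 0.19 for *Nampt*. In monocytes they were -0.79 and 0.95 for *Gdf15*, with 46 control and 73 KO cells at dpi4, where thinned shares of cells with a UMI had the opposite order, 21.7% in control and 15.5% in KO. In dendritic cells they were 1.59 and -0.62 for *Gdf15*, 0.17 and -0.17 for *Tgfb1*, and 0.89 and -0.83 for *Spp1*. The 11 macrophage markers, none at 0, summed in dendritic cells to 725 CPM in control and 1230 CPM in KO at dpi2, and to 5273 and 2482 CPM at dpi4, and their part in these ratios was not tested. By cells, 33.7% of control and 17.6% of KO dendritic cells at dpi2 held a *Spp1* UMI after thinning, the opposite order to the summed level. In macrophages the thinned share with *Spp1* was lower in KO on both days, at 80.4% in control and 78.3% in KO at dpi4. Read along time in macrophages, dpi4 over dpi2 was -1.05 in control and 0.24 in KO for *Spp1*, -0.08 and 0.17 for *Nampt*, and -0.25 and 0.19 for *Grn*. With monocytes counted in, the *Grn* values were 0.11 and 0.48, no longer opposite. These use the same 4 libraries as the genotype ratios. With 1 library per group, none of these differences was tested.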

How the results depend on the processing

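No paired analysis was possible because each group was 1 library. At a limit of 1.5-fold, the factors past the rule between genotypes numbered 1 in macrophages at dpi2 (*Spp1*), 1 at dpi4 (*Igf1*), 3 in monocytes (1 higher, 2 lower) and 2 in neutrophils (1 higher, 1 lower), against 0, 0, 0 and 1 at 2-fold. Of all genes 5.37%, 3.25%, 4.99% and 4.75% were then higher and 5.94%, 4.13%, 6.59% and 21.1% lower. With libraries clustered apart, 2 factors passed in monocytes, and with equal weight per cell 0 in neutrophils. The counts with time stayed within 1.5 times of 5 (control) and 4 (KO) under the alternatives for which factors were counted. They were not counted with cluster shares fixed, where control *Gdf15* (0.64) and *Spp1* (-0.53) and KO *Gdf15* (0.53) and *Gdf3* (-0.80) fell short of 2-fold, while KO *Spp1* (1.21) and *Tgfbi* (-1.22) passed it. The sign of the log2 ratio was kept in 96 of 99 values at dpi2 and 97 of 99 at dpi4 between genotypes in macrophages, in 98 of 99 with time in either genotype, in 64 of 72 in monocytes and in 46 of 56 in neutrophils. TMM moved macrophage log2 ratios by at most 0.03. The cause of these shifts was not tested. Depth limits *Gdf3* and *Pdgfb* most, at under 10 CPM in macrophages at dpi2.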
